A study of Mus musculus with 16 samples.

Results

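DNA methylation was measured in the flanks of 2 sets of intracisternal A particle (IAP) elements in mouse B and T lymphocytes. The first set was the 26 IAPs that the study listed as false positives of its screen for variably methylated IAPs, here called invariable IAPs. By the study's bisulfite pyrosequencing they were not variably methylated in ear, B cells or T cells. The second was the 18 k-mer IAPs, which the study picked because they share short sequences with its variably methylated IAPs. Flanks were cut into 500 bp bins from each edge of an element out to 5000 bp, in mm10 coordinates, and a bin was kept with 3 CpGs or more and 20 calls or more in at least 5 libraries of each cell type. This left 182 of 520 bins at 23 of the 26 invariable IAPs and 141 of 360 bins at all 18 k-mer IAPs, beside 2212055 tiles of 500 bp on chromosomes 1 to 19 that met the same limits. No bin was kept at IAP-Vmn2r-ps126, IAP-Cdh19 or IAP-Nova1.

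The data were 16 whole-genome bisulfite libraries from the spleens of inbred C57BL/6 mice, given as strain C57BL/6J, aged 6 to 8 weeks and carrying no engineered allele or treatment in the labels. There were 8 libraries of CD43- resting B cells and 8 of naive CD4+ CD62L+ T cells, each isolated with magnetic beads and each with 4 libraries per sex. Of those 4, 2 were made by bisulfite sequencing (BS), which reads 5-methylcytosine and 5-hydroxymethylcytosine together, and 2 by oxidative bisulfite sequencing (oxBS), which reads 5-methylcytosine alone. Cells were pooled from several mice of a sex, and the labels number the libraries but name no mouse, so p-values measure the spread between libraries, which may be partly technical. The labels also leave unsaid if 1 DNA sample was split between the assays, in which case fewer than 8 libraries of a cell type would be independent and the p-values, those by permutation included, would be too small. A level is the percentage of methylated calls in a bin, a difference is the mean of the B cell libraries minus that of the T cell libraries in percentage points, and the error is the SD over libraries.

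Each library held 123693203 to 171130063 calls and covered an autosomal CpG 5.83 to 8.07 times on average, with methylation of 79.4 to 81.5% in B cells and 78.4 to 79.6% in T cells. The labelled cell types could be read from methylation within 1 kb of gene starts. The 5 B cell genes Cd79a, Cd79b, Ms4a1, Pax5 and Blk were lower in every B cell library than in any T cell library, by 14.5 to 80.6 points, and all 7 T cell genes (Cd3e, Cd3d, Cd3g, Cd4, Bcl11b, Tcf7 and Lck) were lower in every T cell library, by 3.80 to 89.7 points. Among genes of other cells, Ncr1 and Csf1r lay between 87.3 and 92.6% in both, Lyz2 at 46.6% in B and 65.0% in T cells, Cd8a at 86.7 and 60.5%, and Cd8b1 at 90.3 and 34.9%. The part of other cells in the results was not tested.

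IAPs are retroviral insertions with a long terminal repeat (LTR) at each end, which holds the promoter, and recombination between the ends leaves a solitary LTR. Most copies are silenced by methylation of their CpGs, but at some the level is set early in development and differs between genetically identical mice. Mammalian DNA outside gene regulatory elements is mostly methylated, and regulatory elements active in a cell type tend to lose methylation in that cell type.

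The sequences below are 3 of the 14 short sequences behind the choice of the k-mer IAPs, and stretches from flank bins. Of the 14 flank bins called between B and T cells 7 are shown, chosen after their values were seen. The largest difference in each direction is among them. A further 1 stretch was unmethylated in both cell types. Of the 14 short sequences the study lists, the 3 most common ones among the k-mer IAPs were present in 15, 13 and 13 of the 18 elements, and in 1, 1 and 2 of the 26 invariable IAPs. None of these 3 sequences was in IAP-Map3k20, IAP-Gpsm1 or IAP-Cdc73, the k-mer IAPs of type IAPLTR1. A k-mer IAP held 4 to 6 of the 14, with a median of 5, and 5 of the 26 invariable IAPs held any. The choice of the k-mer IAPs by these sequences fixed that contrast in advance. The sets also differ in LTR type: 3 k-mer IAPs are IAPLTR1 and 15 are IAPLTR2, beside 4 and 4 of the invariable IAPs. Each of the 3 most common short sequences is printed 5′ to 3′ with its CpGs in capitals.
Short sequence 11: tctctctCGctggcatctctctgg
Short sequence 7: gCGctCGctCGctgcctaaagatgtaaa
Short sequence 14: gCGCGcCGgagctctg

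The flank stretches are the part of at most 300 bases with most CpGs in each bin, on the + strand of mm10 as given by RefSeq for GRCm38.p6, 5′ to 3′, and capitals again mark the CpGs that the libraries measured. Directions are in chromosome coordinates, so that before an element means at lower positions. The next 2 stretches after the first adjoin each other.
IAP-Ano6, 0 to 500 bp before the element, chr15:95752886-95753185: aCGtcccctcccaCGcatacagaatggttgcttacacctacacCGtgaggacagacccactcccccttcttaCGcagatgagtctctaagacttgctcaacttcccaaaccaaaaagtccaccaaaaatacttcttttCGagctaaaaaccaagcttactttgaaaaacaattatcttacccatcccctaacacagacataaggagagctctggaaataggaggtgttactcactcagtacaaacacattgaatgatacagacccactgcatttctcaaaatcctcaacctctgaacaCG
IAP-Ano6, 3000 to 3500 bp after the element, chr15:95757107-95757205: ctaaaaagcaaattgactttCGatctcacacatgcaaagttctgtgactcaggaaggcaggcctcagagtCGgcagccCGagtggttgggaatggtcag
IAP-Ano6, 3500 to 4000 bp after the element, chr15:95757206-95757382: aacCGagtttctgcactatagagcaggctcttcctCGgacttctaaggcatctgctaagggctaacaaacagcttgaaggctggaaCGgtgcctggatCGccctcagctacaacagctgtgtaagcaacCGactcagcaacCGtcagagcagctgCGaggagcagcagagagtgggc
IAP-Gm1335, 1500 to 2000 bp after the element, chr2:93941842-93942052: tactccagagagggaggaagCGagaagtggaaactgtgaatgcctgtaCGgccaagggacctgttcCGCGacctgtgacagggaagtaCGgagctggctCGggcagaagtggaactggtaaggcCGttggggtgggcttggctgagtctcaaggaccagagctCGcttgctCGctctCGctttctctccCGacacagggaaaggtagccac
IAP-Art2aps, 0 to 500 bp after the element, chr7:101562374-101562588: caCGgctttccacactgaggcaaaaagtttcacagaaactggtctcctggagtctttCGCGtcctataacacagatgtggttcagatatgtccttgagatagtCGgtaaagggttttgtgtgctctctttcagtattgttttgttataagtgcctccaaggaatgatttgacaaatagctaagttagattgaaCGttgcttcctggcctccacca
IAP-Gpsm1 (k-mer), 3500 to 4000 bp after the element, chr2:26342173-26342472: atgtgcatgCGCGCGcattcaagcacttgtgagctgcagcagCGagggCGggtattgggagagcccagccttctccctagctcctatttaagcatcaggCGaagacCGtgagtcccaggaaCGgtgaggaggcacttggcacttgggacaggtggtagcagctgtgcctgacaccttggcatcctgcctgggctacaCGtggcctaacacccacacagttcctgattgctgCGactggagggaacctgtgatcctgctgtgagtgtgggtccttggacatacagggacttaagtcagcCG
IAP-Gpsm1 (k-mer), 4000 to 4500 bp after the element, chr2:26342655-26342935: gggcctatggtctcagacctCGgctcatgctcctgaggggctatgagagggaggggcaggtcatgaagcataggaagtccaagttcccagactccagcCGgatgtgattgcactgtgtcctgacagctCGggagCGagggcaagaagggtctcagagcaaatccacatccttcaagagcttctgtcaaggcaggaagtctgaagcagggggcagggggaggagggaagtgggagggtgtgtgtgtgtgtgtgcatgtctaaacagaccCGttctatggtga
IAP-1700049G17Rik, 4000 to 4500 bp before the element, unmethylated in both cell types, chr7:27929285-27929584: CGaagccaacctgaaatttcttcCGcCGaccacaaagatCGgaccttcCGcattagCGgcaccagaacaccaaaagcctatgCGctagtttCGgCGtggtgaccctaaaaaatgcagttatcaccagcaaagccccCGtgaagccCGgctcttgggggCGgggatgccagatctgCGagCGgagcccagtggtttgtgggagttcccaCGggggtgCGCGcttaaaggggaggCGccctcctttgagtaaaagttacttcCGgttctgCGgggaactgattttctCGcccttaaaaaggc

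The flanks of both sets were mostly methylated in both cell types. Of the 182 bins at invariable IAPs, 144 (79.1%) had a level of 80% or more, 6 (3.30%) were at 20% or less and 32 lay between, with a median of 90.5% and a range of 1.15 to 97.8%. Of the 141 bins at k-mer IAPs, 131 (92.9%) were at 80% or more, none was at 20% or less and 10 lay between, with a median of 94.7% and a range of 41.6 to 98.7%. The listed coordinates of a k-mer IAP cover 1 LTR, so that at least 30 of these 141 bins ran through the body of the element, all 30 at 80% or more. Of the 77 bins on the side away from a second LTR copy, 69 (89.6%) were at 80% or more with a median of 92.4%. The same classes held 82.1% and 3.35% of all tiles, whose median was 92.0%. In the flanks of the study's constitutively variable IAPs (cVM-IAPs) 373 of 511 bins (73.0%) were at 80% or more and 38 at 20% or less, and in those of its tissue-specific variable IAPs (tsVM-IAPs) 178 of 235 (75.7%) and 20. These shares are descriptions, and their differences were not tested.

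By distance from the element, the medians ran from 87.2 to 92.6% at invariable IAPs and from 91.7 to 96.3% at k-mer IAPs, and the share of bins at 80% or more from 70% to 89.5% and from 85.7 to 100%. No trend with distance was tested. In the first 500 bp, 19 of 25 bins at invariable IAPs (76.0%) were at 80% or more with a median of 91.1%, where 25 of 50 bins at cVM-IAPs (50%) were, with a median of 80.7%, and 17 of 25 at tsVM-IAPs (68%), with a median of 87.5%. Of the 21 first bins at k-mer IAPs, 12 lay in the body of an element with a second LTR copy, all at 80% or more. Of the other 9, 8 were at 80% or more, with a median of 95.6%. Those 9 include the first bins on either side of IAP-Cyp4a32, which is listed as full length. No second copy was found there, so the side of its body is not known. In the outermost 500 bp 14 of 20 bins at invariable IAPs (70%) were at 80% or more with a median of 87.9%, and 12 of 14 at k-mer IAPs (85.7%) with a median of 93.3%. Among the invariable IAPs, 8 of the 23 elements with bins had every bin at 80% or more, 15 had a bin below that and 5 had a bin at 20% or less. Among the k-mer IAPs, 10 of 18 had every bin at 80% or more. Libraries of 1 cell type spread by a median SD of 4.23 points in B and 4.43 points in T cells at the bins of invariable IAPs, and by 3.56 points in both cell types at those of k-mer IAPs.

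**Figure D1:**
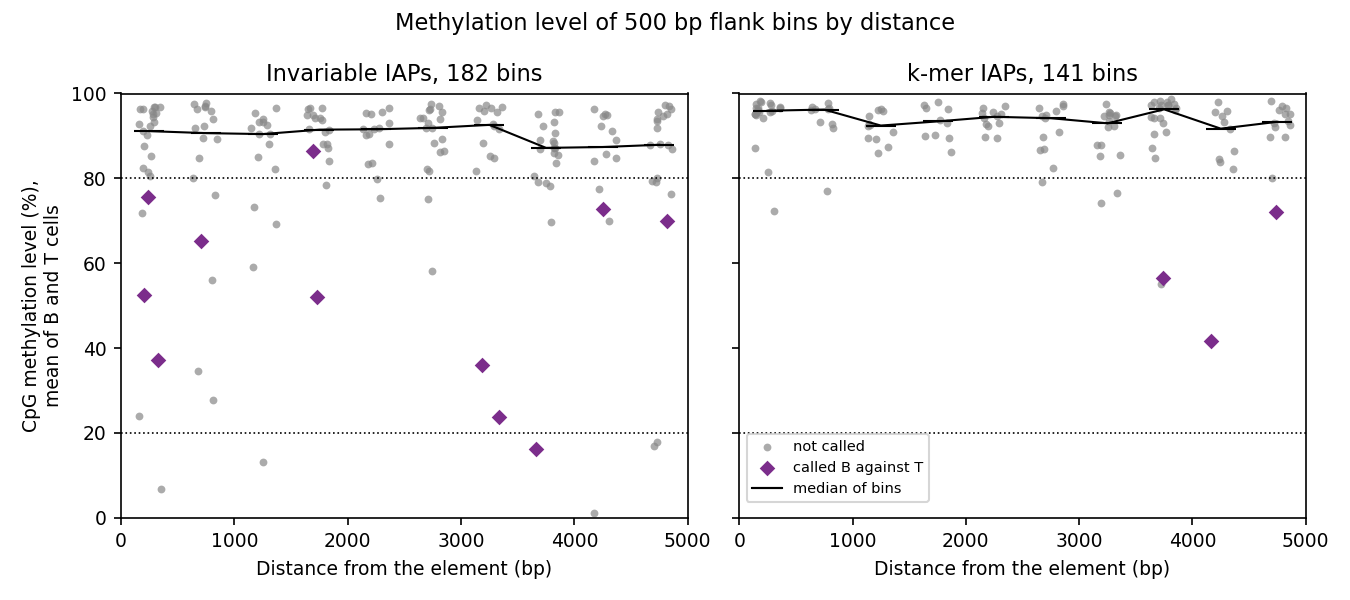
Methylation level (%, mean of the B and T cell means) of each kept flank bin against the distance of the bin from the element (bp, points jittered sideways), for the 182 bins at invariable IAPs and the 141 bins at k-mer IAPs, at least 30 of which run through the body of the IAP. Diamonds are bins called between B and T cells, the line joins the medians of each distance, and the dotted lines mark 80% and 20%. Most bins lie above 80% at every distance, and the 6 bins at 20% or less are all at invariable IAPs.

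B and T cells had close to the same level in most bins. The difference was under 5 points in 138 of 182 bins (75.8%) at invariable IAPs and in 125 of 141 (88.7%) at k-mer IAPs. The share was 83.1% over all tiles, 73.6% at cVM-IAPs and 80.9% at tsVM-IAPs, so that it was lower at invariable IAPs than over all tiles. The median differences were 0.479 and 0.361 points, beside 0.401 points over all tiles. B cells were the higher in 102 (56.0%) and 83 (58.9%) of the bins, beside 56.9% of all tiles. The median width of the 95% interval of a difference was 10.7 points at invariable and 8.58 points at k-mer IAPs, and the interval lay within 10 points of 0 in 115 and 110 bins.

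A bin was called at a Benjamini-Hochberg adjusted p under 0.05 of a quasi-binomial F test, adjusted over all tiles and flank bins, with a difference of 20 points or more. Of all tiles 3.14% were called, 2% with more methylation in B and 1.14% with more in T cells. At invariable IAPs 11 of 182 bins (6.04%) were called, 9 with more in B and 2 with more in T cells. However, 6 of the 11 were at IAP-Ano6, and 5 of the other 164 bins (3.05%) were called, a share near that of all tiles. The other 5 were at IAP-Gm1335, IAP-Art2aps, IAP-Scgb2b27, IAP-abParts and IAP-Creb3l2, with 1 bin each. At k-mer IAPs 3 of 141 bins (2.13%) were called, all higher in B cells, 2 at IAP-Gpsm1 and 1 at IAP-Srpk2. The 141 include the 30 bins in the body of an element, of which none was called. All calls were among the 77 bins away from a second LTR copy, 3 of 77. With no limit on the difference 7.26% of all tiles passed, as did 17 bins at invariable IAPs (9.34%), 15 of them higher in B cells, and 10 at k-mer IAPs (7.09%), 7 of them higher in B cells. The libraries of the cell types did not overlap in 12 of the 182 and 6 of the 141 bins, beside 3.76% of all tiles. Those included 10 of the 11 and all 3 called bins, which their test had already chosen for a difference.

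**Figure D2:**
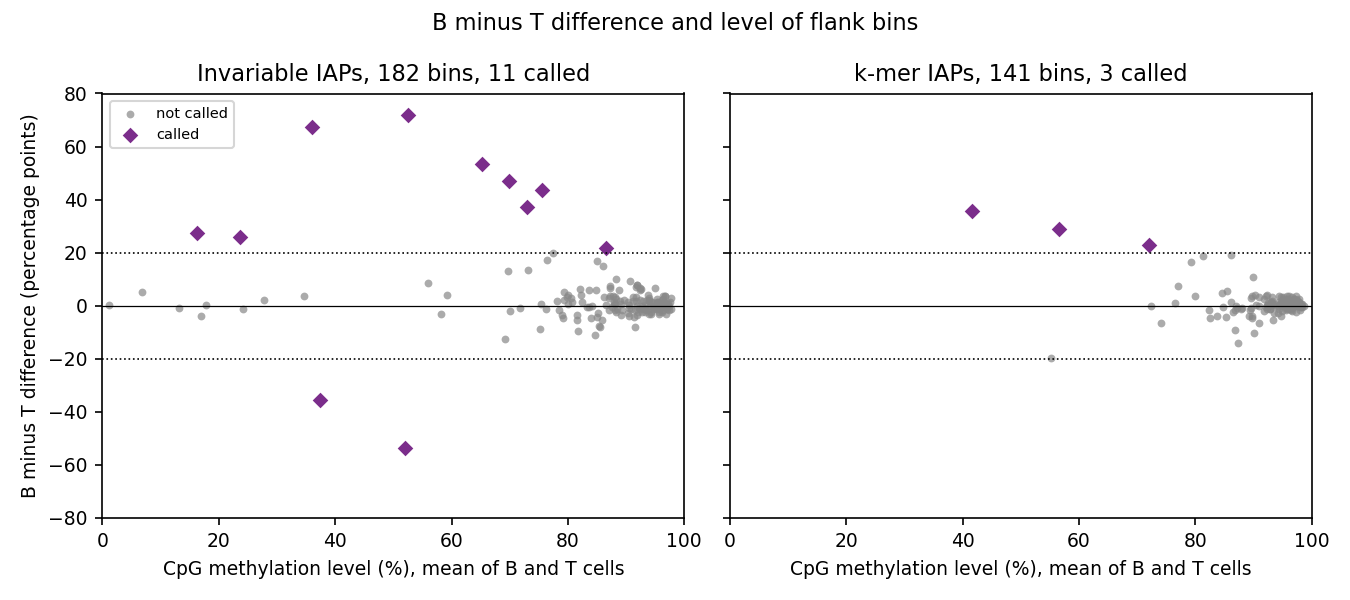
B minus T difference (percentage points) against the level (%, mean of the B and T cell means) of the flank bins of invariable IAPs (182 bins) and k-mer IAPs (141 bins). Diamonds are the 11 and 3 called bins and the dotted lines mark a difference of 20 points either way. Bins near 90% lie close to 0, and 2 diamonds lie below the lower line, at invariable IAPs.

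The largest differences were in the flanks of IAP-Ano6, a solitary LTR of type IAPLTR2a2 at chr15:95753316-95753705. It lies in an exon of the non-coding gene Gm49169, 222 bp from its start, and was named by the study for Ano6, which encodes a membrane scramblase. Of its 18 kept bins 6 were called, all higher in B cells, in a run of 2 bins on one side and a run of 4 on the other. In the 500 bp before the LTR (7 CpGs, chr15:95752816-95753315, an exon of Gm49169), the B cell libraries ranged from 81.1 to 94.8% with a median of 88.7%, and the T cell libraries from 2.33 to 31.7% with a median of 17.7%. The means were 88.3% ± 4.34 (SD, n = 8) and 16.6% ± 9.01 (SD, n = 8), a difference of 71.7 points (95% interval 63.8 to 79.6), the largest of all 323 bins. The quasi-binomial fit gave it an adjusted p of 2.56e-07. All 7 CpGs of the bin, 6 of which are in the stretch above, were higher in B cells, by 45.9 to 89.8 points.

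The difference shrank with distance on that side. Between 500 and 1000 bp, in an intron of Gm49169, B cells were at 91.8% ± 6.998 (SD, n = 7) and T cells at 38.5% ± 8.56 (SD, n = 8), with B cell libraries from 78.0 to 97.7% and T cell libraries from 27.6 to 54.2%. Between 1000 and 1500 bp the means were 93.4 and 76.7%, which passed the p threshold of the quasi-binomial fit (adjusted p = 0.0132) but not the limit of 20 points. From 1500 bp outward the 7 bins were at 89.6% or more in B cells and 85.9% or more in T cells.

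On the other side the first bins were methylated in both cell types, at 96.6% ± 1.56 and 97.0% ± 2.09 (SD, n = 8 each) in the first 500 bp. At 3000 to 3500 bp (3 CpGs, intergenic) the B cell libraries ranged from 53.3 to 88.9% with a median of 66.1%, and no T cell library exceeded 5.56%, the T cell median being 3.08%. The difference there was 67.2 points (95% interval 56.6 to 77.9, adjusted p = 2.84e-07 by the quasi-binomial fit). The adjoining bin at 3500 to 4000 bp (8 CpGs) was lower in B cells, with 29.95% ± 9.96 in B and 2.45% ± 2.02 in T cells (SD, n = 8 each). Every one of its CpGs was at 7.14% or less in T cells and between 19.8 and 51.2% in B cells. In the 2 outermost bins B cells were at 91.5% ± 6.24 and 93.4% ± 5.71 and T cells at 54.3% ± 12.8 and 46.4% ± 11.2 (SD, n = 8 each). With the libraries of 1 assay or 1 sex alone, the calls at 0 to 500 bp before and 3000 to 3500 bp after the LTR were kept in all 4 cases, and the other 4 were lost in 1 or more (adjusted p up to 0.158 by the quasi-binomial fit), with B cells the higher in each. The 6 called bins thus formed 2 stretches of lower methylation in T cells, one beside the LTR and the other from 3000 bp on its far side. The LTR itself was mostly methylated in both: over the 8 CpGs nearest its near edge the means were 89.1% ± 6.45 in B and 80.6% ± 10.6 in T cells, and over those nearest its far edge 98.3 and 97.0%.

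IAP-Gm1335, another solitary IAPLTR2a2 LTR at chr2:93939728-93940154, had the largest difference in the other direction. In its bin at 1500 to 2000 bp after the element (11 CpGs, chr2:93941655-93942154, intergenic, 1026 bp from the start of the predicted gene Gm1335) B cell libraries lay between 20.6 and 28.6% with a median of 25.5%, and T cell libraries between 73.1 and 85.9% with a median of 79.0%. The means were 25.3% ± 2.27 and 78.8% ± 5.16 (SD, n = 8 each), so that B cells were lower by 53.6 points (difference -53.6, 95% interval -58.0 to -49.1). The adjusted p was 2.17e-08 by the quasi-binomial fit, and all 11 CpGs were lower in B cells. The bins on either side of it were at 79.9 and 66.4% and at 88.6 and 92.5% in B and T cells, neither called. Nearer the LTR this locus was low in both cell types: 23.4% ± 10.5 and 24.8% ± 6.21 in the first 500 bp after it, and 12.7% ± 2.34 and 13.7% ± 4.18 at 1000 to 1500 bp before it (SD, n = 8 each), with 87.4 and 87.8% in the first 500 bp before it. The LTR was intermediate, at 61.8 and 50.3% over the 8 CpGs nearest one edge and 31.3 and 26.1% nearest the other.

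**Figure D3:**
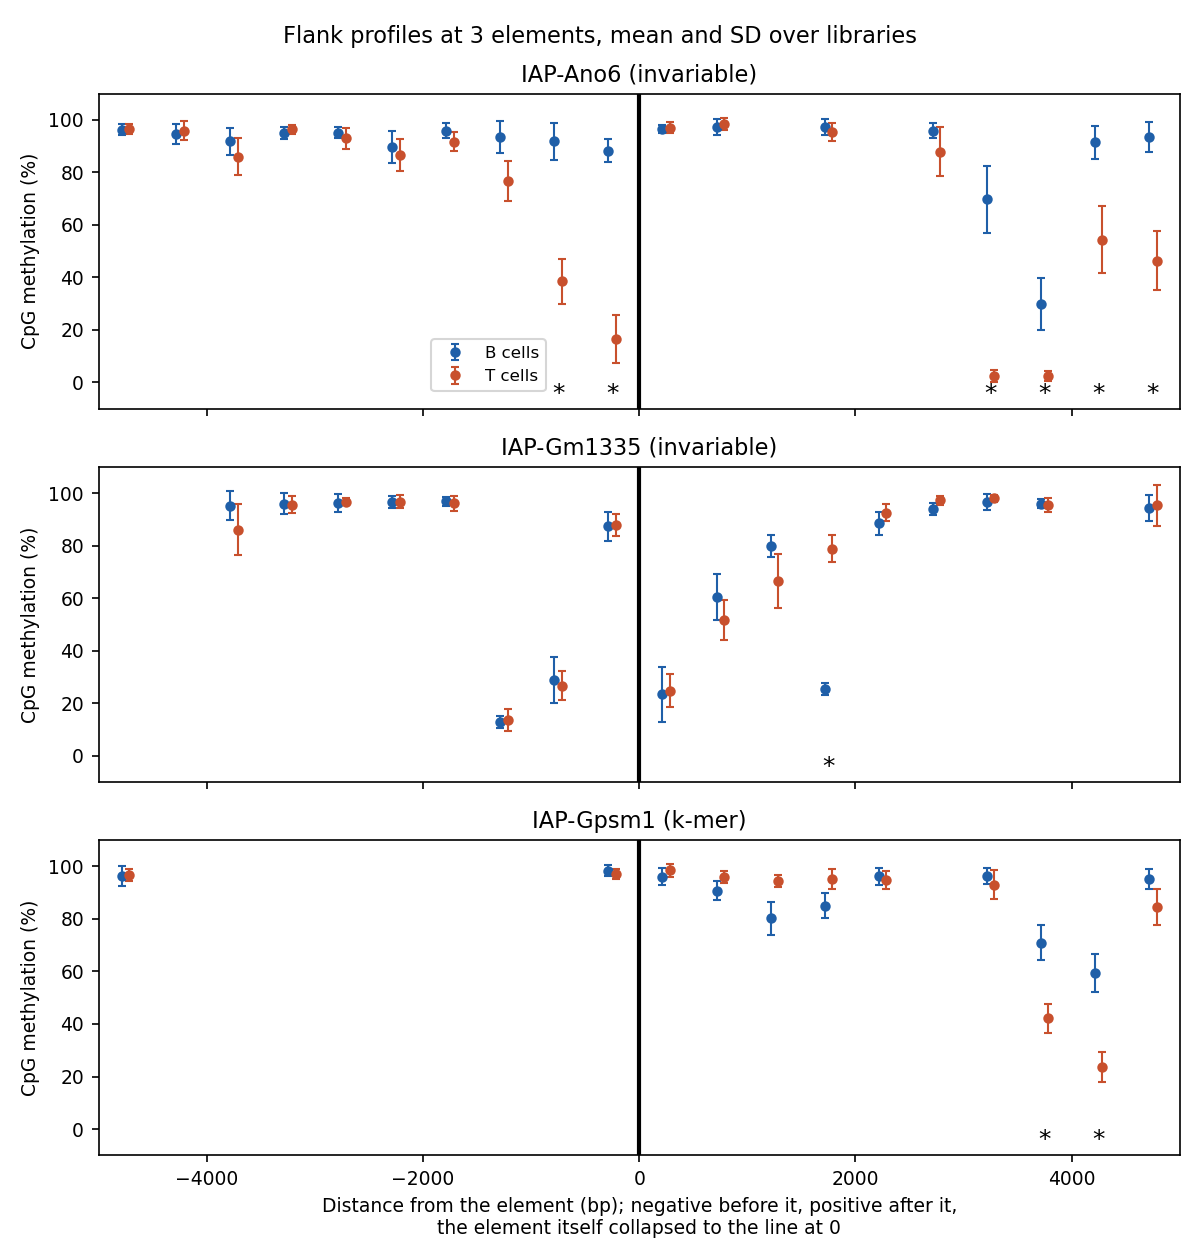
CpG methylation (%, mean ± SD over libraries) of the kept 500 bp bins against distance from the element (bp, negative before it) at IAP-Ano6 and IAP-Gm1335 (invariable) and IAP-Gpsm1 (k-mer), for B and T cells. Stars mark called bins and the element is collapsed to the line at 0. At IAP-Ano6 T cells drop to 16.6% just before the element and to 2.44% from 3000 bp after it, at IAP-Gm1335 B cells alone drop to 25.3% at 1500 to 2000 bp, and at IAP-Gpsm1 the lowest T cell mean is 23.7%.

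The other 4 called bins at invariable IAPs were at single positions. In the 500 bp after IAP-Art2aps, an IAPEY5 solitary LTR 1364 bp from the start of the ADP-ribosyltransferase pseudogene Art2a-ps, no B cell library was below 94.8% and T cell libraries lay between 45.0 and 59.6%. Its means were 97.4% ± 2.11 and 53.7% ± 5.52 (SD, n = 8 each), with a two-sided exact permutation p of 0.0001554, the smallest possible, and an adjusted p of 1.73e-07 by the quasi-binomial fit. Here the LTR was lower in T cells too, with 92.9% ± 4.33 against 72.3% ± 6.11 over the 8 CpGs nearest that edge. Of 50 such edges at invariable IAPs, 3 differed by 20 points or more, which was not tested. The others were at IAP-Vmn2r97 (75.6% in B and 41.8% in T cells) and IAP-Cdh19 (90.9 and 64.0%). No flank bin was called at IAP-Vmn2r97, and none was kept at IAP-Cdh19. In the 500 bp before IAP-Scgb2b27, an IAPEY4 solitary LTR whose flank there is 98.0% repeat-masked, B cells were lower, at 19.5% ± 9.97 (SD, n = 8) against 55.1% ± 9.37 (SD, n = 7), with libraries from 0 to 31.8% and from 42.9 to 66.7%. The difference had an adjusted p of 0.00165 by the quasi-binomial fit, and 0.0839 to 0.353 with the libraries of 1 assay or 1 sex alone, where it was -38.4 to -33.9 points.

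IAP-abParts is a fragment at chr12:115737422-115738757, among the variable genes of the immunoglobulin heavy chain, which B cells rearrange by deleting DNA. Its bin at 3000 to 3500 bp (10 CpGs), over the coding exon of the variable gene Ighv1-71, was at 36.5% ± 5.91 in B and 10.8% ± 4.81 in T cells (SD, n = 8 each). No B cell library was below 24.5% and no T cell library above 18.4% (adjusted p = 4.26e-05 by the quasi-binomial fit). The other 3 bins of this element were at 93.0% or more in both cell types and differed by 0.775 points at most. The share of a library's calls that fell in its flanks was 0.914 times as large in B as in T cells (two-sided exact permutation p = 0.115, where 0.0001554 is the smallest possible), and the ratio at the other elements of both sets ranged from 0.881 to 1.13.

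The remaining called bin was at IAP-Creb3l2, 1500 to 2000 bp before a solitary IAPLTR2 LTR 22230 bp from the start of Creb3l2, which encodes a membrane-bound transcription factor. B cell libraries lay between 92.3 and 100% and T cell libraries between 50 and 95.8%, so that the groups overlapped (adjusted p = 0.00369 by the quasi-binomial fit). Their means were 97.4% ± 2.64 and 75.6% ± 16.6 (SD, n = 8 each). The T cell mean was 89.0% in BS and 62.1% in oxBS libraries, and the difference was 6.63 points in BS and 37.0 points in oxBS libraries. Without female oxBS library 16 or male oxBS library 8 of T cells the difference fell to 19.4 or 18.1 points, below the limit. The LTR of this element was nearly unmethylated, at 1.61 and 1.80% in B and T cells over the 8 CpGs nearest one edge and 1.39 and 1.89% nearest the other, while its 9 flank bins had levels of 79.0% or more.

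Among the 5 k-mer-bearing invariable IAPs, IAP-Creb3l2 held 3 of the 14 short sequences, IAP-Mir30c-2 held 4, IAP-3110079O15Rik held 2, and IAP-Fam32a and IAP-Cdh19 held 1 each.

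The 6 bins at 20% or less were all at invariable IAPs, at 5 elements. The lowest was 4000 to 4500 bp before IAP-1700049G17Rik, at chr7:27929246-27929745, over the start of the zinc finger gene Zfp974. It was at 1.19% ± 0.736 in B and 1.10% ± 0.460 in T cells (SD, n = 8 each), held 26 CpGs, no repeat and an observed to expected CpG ratio of 0.775, and had 246 calls in the median library, so that no library exceeded 2.34%. The adjoining bin farther out was at 17.9% ± 3.29 and 17.8% ± 5.52. Besides the bins of IAP-Ano6 and IAP-Gm1335 described above, a bin 4500 to 5000 bp after IAP-Mrgprb5 was at 14.9% ± 3.62 and 18.9% ± 5.59 (SD, n = 8 each). The bin before IAP-Gm4262 (3 CpGs), in an intron of Litaf, was at 9.41% ± 6.78 (SD, n = 7) and 4.25% ± 3.76 (SD, n = 8). Only 1 of the 6 had a transcription start inside. Of the 6, the bin at IAP-Ano6 was called and the other 5 differed by 5.17 points at most.

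IAP-Gpsm1 had the largest differences among the k-mer IAPs. It is 1 of the 3 IAPLTR1 elements of that set, at chr2:26338105-26338473 in an intron of Gpsm1, which encodes a modulator of G protein signalling. The bin at 3500 to 4000 bp after it (12 CpGs) holds a transcription start of Gpsm1, with B cell libraries between 64.5 and 84.4% and T cell libraries between 37.6 and 52.9%. The next bin outward (5 CpGs), in an intron, ranged from 51.4 to 72.9% and from 15.3 to 33.3%. Their means were 70.9% ± 6.69 against 42.2% ± 5.56 and 59.4% ± 7.18 against 23.7% ± 5.74 (SD, n = 8 each). The differences were 28.8 and 35.7 points (adjusted p = 8.15e-05 and 2.54e-05 by the quasi-binomial fit). The first was 25.2 points with BS and 25.4 points with male libraries alone, where its call was lost (adjusted p = 0.173 and 0.0938 by the quasi-binomial fit).

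Closer to the element the direction was opposite. At 1000 to 1500 bp B cells were at 80.3% ± 6.26 and T cells at 94.4% ± 2.16 (SD, n = 8 each). The libraries did not overlap (difference -14.1, adjusted p = 2.75e-04 by the quasi-binomial fit), and at 1500 to 2000 bp the means were 84.97 and 95.2% (adjusted p = 0.0343 by the quasi-binomial fit). Both passed the p threshold but not the limit of 20 points. The LTR edge on that side was at 96.9% in B and 90.7% in T cells, and the first bin at 96.1 and 98.5%.

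The remaining call at k-mer IAPs was 4500 to 5000 bp after IAP-Srpk2, in an intron of the SR protein kinase gene Srpk2. It held 4 CpGs and was at 83.5% ± 8.04 (SD, n = 7) in B and 60.5% ± 6.98 (SD, n = 8) in T cells. Its libraries lay between 70 and 96.2% and between 46.9 and 68.3% (adjusted p = 0.00606 by the quasi-binomial fit). With the libraries of 1 assay or 1 sex alone the call was lost, at differences of 15.3 to 32.0 points and adjusted p from 0.110 to 0.436 by that fit. Of its CpGs 3 were higher in B cells, and the fourth was lower by 0.686 points. The other 8 bins of IAP-Srpk2 were at 80% or more.

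**Figure D4:**
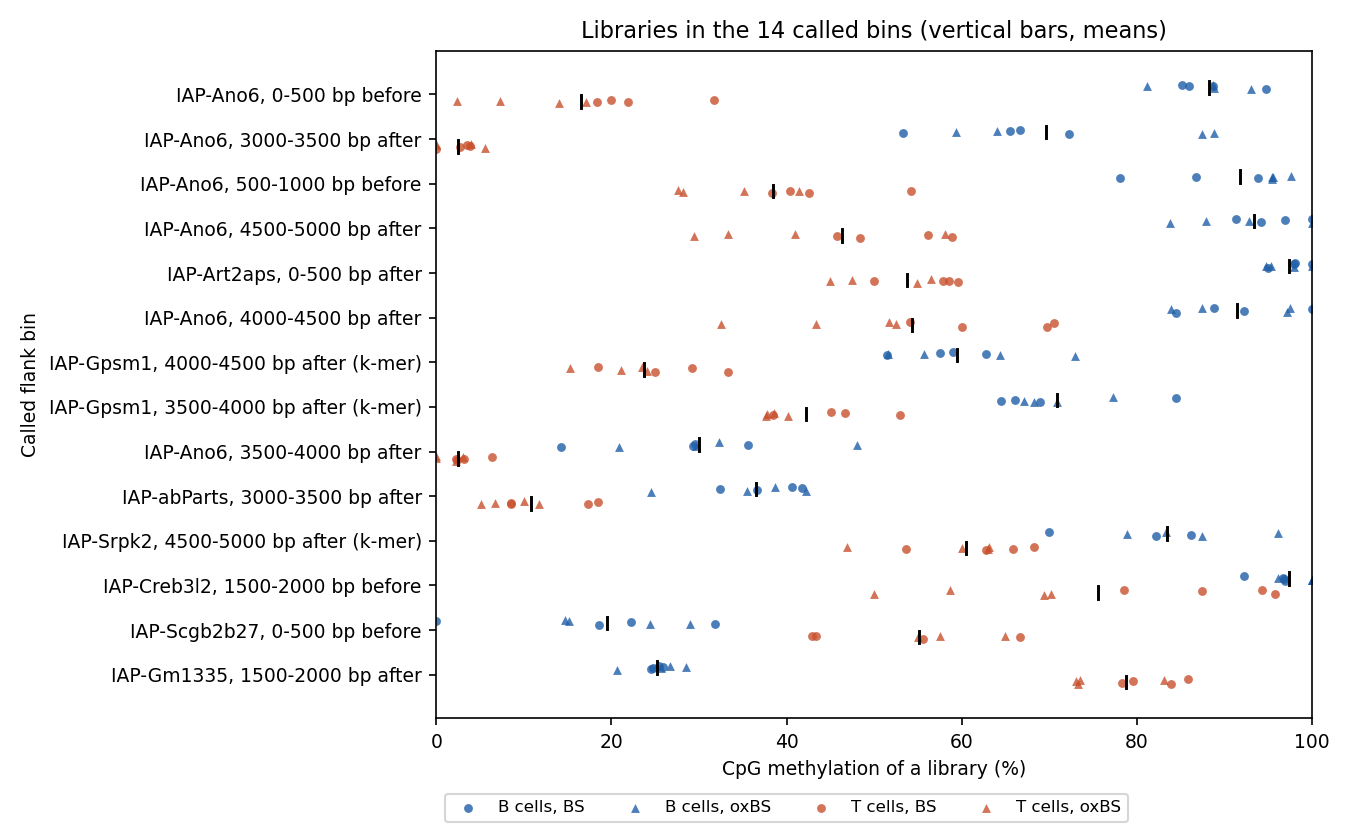
CpG methylation (%) of each library with 20 calls or more in the 14 called bins, ordered by B minus T difference, with B cells above T cells in each row, circles for BS and triangles for oxBS libraries, and a vertical bar at each mean. Only in the bin of IAP-Creb3l2 do the cell types overlap, and there the 4 oxBS libraries of T cells lie below the 4 BS libraries.

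Several bins fell just short of the limit of 20 points. At invariable IAPs the largest was 4000 to 4500 bp before IAP-Gm4262, at 87.3% ± 5.59 in B and 67.5% ± 5.54 in T cells (SD, n = 8 each), a difference of 19.8 points. Its adjusted p was 4.07e-04 by the quasi-binomial fit. At k-mer IAPs IAP-Hspa4, the only solitary LTR of that set, had 45.4% ± 8.03 in B and 65.1% ± 3.04 in T cells at 3500 to 4000 bp before it (SD, n = 8 each). The difference of -19.7 points had an adjusted p of 6.05e-04 by the quasi-binomial fit. Its B cell male oxBS library 3 stood apart at 63.2%, and without it the difference was -22.2 points, past the limit. In all, the bin was called in 5 of the fits with another setting or with a library left out. The first bin before IAP-Gm47257 and the bin at 1500 to 2000 bp after IAP-Map3k20 differed by 18.7 and 19.03 points, and their libraries did not overlap. In the bin at 2500 to 3000 bp before IAP-Phf20, in an intron of Phf20, the difference of 16.6 points (adjusted p = 0.0412 by the quasi-binomial fit) was 5.79 points in BS and 27.3 points in oxBS libraries. In all, 6 of 182 bins at invariable and 7 of 141 at k-mer IAPs passed the p threshold without reaching the limit. Such bins were not particular to these flanks: of all tiles 7.26% passed the p threshold and 3.14% also reached the limit.

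In the called bins with more methylation in B cells, T cell levels were lower in oxBS than in BS libraries, as in most tiles called in that direction. Of those bins, 6 were at IAP-Ano6 and 2 at IAP-Gpsm1. The T cell mean was lower in oxBS in 12 of these 12 bins, by a median of 6.41 points and from 0.110 points at 3000 to 3500 bp after IAP-Ano6 to 27.0 points at IAP-Creb3l2, whereas the B cell mean was lower in oxBS in 5 of 12 (median BS minus oxBS of -1.73 points). In the 2 called bins higher in T cells, the T cell mean was lower in oxBS in 1, and at IAP-Scgb2b27 it was 52.1% in BS and 59.2% in oxBS. The T cell level was lower in oxBS in 87.3% of the tiles called higher in B cells (median 8.53 points), in 73.3% of those called higher in T cells (median 2.55 points) and in 61.9% of all tiles. Over all kept bins the median BS minus oxBS in T cells was 0.805 points at invariable and 1.299 points at k-mer IAPs, beside 0.890 points over all tiles. The assay term itself was called in none of the bins (0.000136% of all tiles). Its unadjusted p was under 0.05 in 12 of 182 and 8 of 141 bins, a threshold that some bins pass by chance alone.

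Male and female libraries did not differ in any bin by the same rule, under which 4.52e-05% of all tiles were called. The unadjusted p of the quasi-binomial fit was under 0.05 for sex in 9 of 182 and 9 of 141 bins, where some bins pass by chance alone. The largest difference between the sexes was 11.8 points at invariable and 13.96 points at k-mer IAPs. No interaction of cell type with sex or with assay reached an adjusted p under 0.05 when that term was added in a fit of its own. Of all 2212055 tiles only 58 did so for sex and 83 for assay, so that its absence in these bins says little.

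At invariable IAPs 115 bins were intergenic, 35 intronic, 28 in exons of non-coding transcripts, 2 in untranslated exons and 2 in coding exons. At k-mer IAPs 77 were intergenic, 50 intronic, 5 in exons of non-coding transcripts and 9 in coding exons. By structure of the invariable IAPs, 10 of the 11 called bins were beside solitary LTRs (91 bins at 10 listed elements), but 6 of the 10 were at IAP-Ano6, and 4 of the other 73 bins (5.48%) were called, beside 3.14% of all tiles. The remaining call, at IAP-abParts, was beside a fragment with 1 LTR. The 5 full-length invariable IAPs had 32 kept bins with a median of 89.1% and none called.

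Part of the flanks of the k-mer IAPs was the IAP itself. The listed coordinates cover a single LTR of 352 to 499 bp, and at 15 of the 18 a second copy with 96.4 to 100% identity was found 2447 to 6472 bp away, so that on one side the bins run through the body of the element. There 30 of 122 possible bins were kept, with a median of 96.5% and none called. The 9 bins beyond the second copy were all at 80% or more. At the 3 elements without such a copy (IAP-Gm23242, IAP-Cyp4a32 and IAP-Hspa4) 23 of 25 bins were at 80% or more. IAP-Gm23242 and IAP-Cyp4a32 are listed as full length, so that some of these bins may also run through the body.

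The edge levels differed more between the sets than the levels of their flanks did, but the edges are of unlike kinds. An edge level was the mean over the 8 CpGs inside the listed coordinates nearest that side. At k-mer IAPs the coordinates cover 1 LTR, so that an edge can face the body of the element. There 29 of 36 edges were kept. IAP-Fscb, with 4 CpGs in all, counts as 2 edges of the same value, and the edges of 5 invariable IAPs share CpGs. At invariable IAPs 20 of 50 edges were at 80% or more, with a median of 73.8% and a range of 0.747 to 97.7%, and at k-mer IAPs all 29 were, with a median of 97.1% and a range of 92.2 to 98.2%. The range over libraries of 1 cell type was 18.4 (B) and 19.6 points (T) at the median invariable edge and 7.83 and 6.25 points at the median k-mer edge, against 34.4 and 30.8 points at cVM-IAPs and 22.9 and 20.3 points at tsVM-IAPs. The ranges were not adjusted for the level of the edges. The cVM-IAPs, tsVM-IAPs and invariable IAPs were all candidates of the study's screen for variable elements. The study sorted the candidates into these classes by bisulfite pyrosequencing of other samples, of ear and B cells. The screen used the spread of outward-facing LTR edges in these same libraries, so the ranges of these groups are no independent evidence of variability. Across the 25 invariable edges with a kept first bin, the flank was the higher in 17, with a median excess of 7.75 points and a Spearman's rho of 0.519. Of 18 k-mer edges, 9 faced the body of an element with a second copy, and their first bins differed from the edge by -2.39 to 1.37 points. The other 9 include the edges of IAP-Cyp4a32, where no copy was found. At these 9 the first bin was the higher in 3, with a median of -1.82 points and a range of -25.8 to 3.50 points. The correlation is across edges, which share their libraries, and is given as a description. Over the bins, the number of CpGs and the level had a rho of 0.124 at 182 bins of invariable and 0.389 at 141 bins of k-mer IAPs. The k-mer value pools 30 bins in the body of an element with its flanks. Those had medians of 18 CpGs and 96.5%, and the 77 bins away from a second copy had medians of 5 CpGs and 92.4%.

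**Figure D5:**
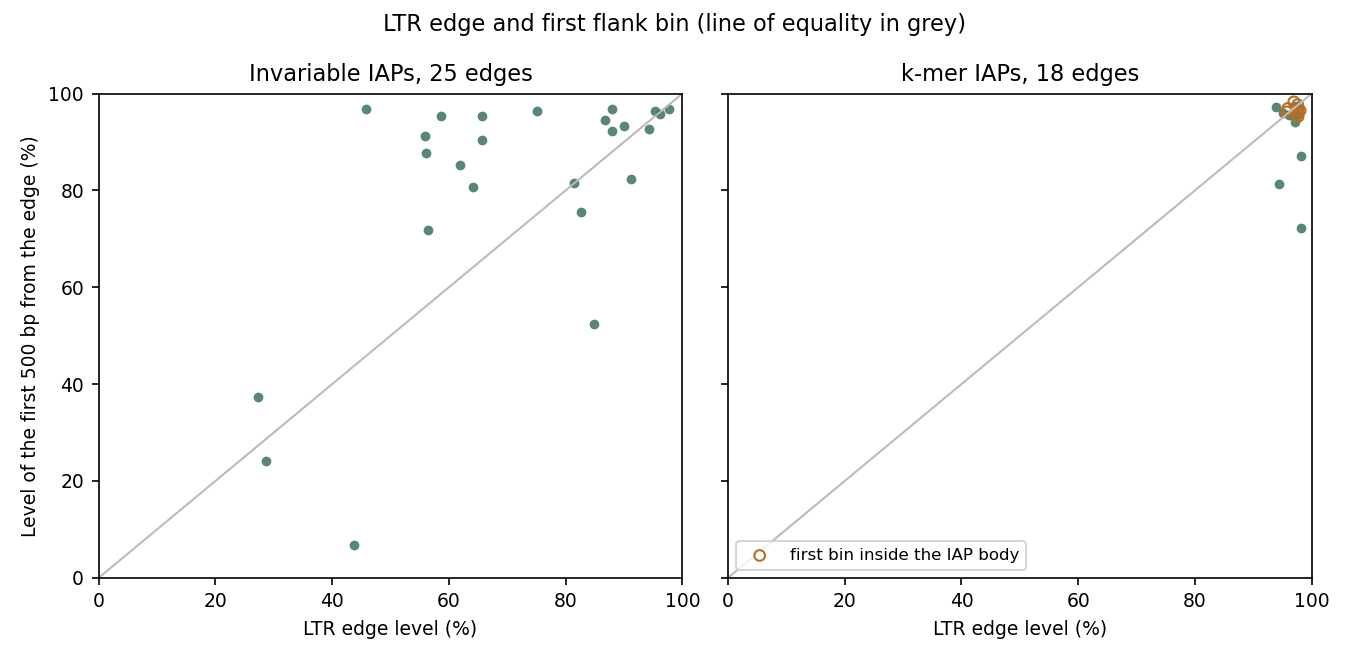
Level of the first 500 bp from an edge of the listed coordinates (%) against the level of the CpGs inside nearest that edge (%), both as the mean of the B and T cell means, for 25 edges of invariable and 18 edges of k-mer IAPs with both values. Open circles are the 9 k-mer edges whose first bin runs through the body of an IAP with a second LTR copy. The other k-mer edges include those of IAP-Cyp4a32, listed as full length, where no copy was found. The k-mer edges all lie at 92.2% or more while the invariable edges spread along the axis, with 17 of 25 points above the grey line of equality.

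Short binding motifs of lymphocyte transcription factors were searched on both strands of the called bins, none of them containing another. TCF7 and LEF1, factors of T cell development, bind CTTTGAA, which was in 4 of the 12 bins higher in B cells and in 1 of the 2 higher in T cells. It was in 11.5% of all tiles, 16.6% of those called higher in B cells and 10.7% of those called higher in T cells. The RUNX motif TGTGGT was in 5 of 12 and 0 of 2 bins, beside 32.8, 46.2 and 36.2% of the same sets of tiles. The ETS motif GGAAGT was in 3 and 1 (27.2, 32.0 and 36.7%), the GATA motif AGATAA in 3 and 1 (25.1, 28.3 and 21.6%), and the E-box CAGCTG in 4 and 0 (21.999, 26.9 and 32.2%). The motif CCCNNGGG of EBF, a B cell factor, was in 2 and 0, beside 11.1, 10.1 and 26.5% of the tiles. A match is a description of the sequence and no evidence of binding.

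Of the bins left out, 235 at invariable and 99 at k-mer IAPs had fewer than 3 CpGs, and 103 and 120 had too few calls. Bins with exactly 3 CpGs numbered 26 and 18, with median levels of 87.8 and 94.0%, and 2 bins of each set with 2 CpGs and enough calls had medians of 9.76 and 93.0%. Bins with exactly 5 libraries in the poorer cell type numbered 16 and 20 (medians 87.7 and 95.1%), and those just outside, with 4, numbered 17 and 10 (93.5 and 92.1%), none of which differed by more than 9.03 points. The median kept bin of either set had 40 calls per library.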

How the data were processed

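The authors trimmed reads with Trim Galore 0.6.0, aligned them with Bismark 0.20.0 (SAMtools 1.3.1) to mm10 and kept alignments with a MAPQ of 10 or more. The deposited values are counts, namely the methylated and unmethylated calls of each CpG and library with both strands added and no normalization. Element positions and the k-mers came from the study's supplementary lists, and sequence and genes from GRCm38.p6, the same build as mm10, and GENCODE vM21.

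Calls were added per bin, and the mean level over libraries with 20 calls or more was taken, so that intervals cover counting error and the spread between libraries. Each bin was fitted with a quasi-binomial logistic model (Pearson dispersion, F test) with cell type, sex and assay, tested on simulated data first. Exact permutation tests were two-sided. No 2 libraries held identical calls. Another B cell marker gene is not reported here.

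Named bins were all called bins, the 3 with the largest difference, lowest level and largest range in each set, the bins at 20% or less, and the bins of IAP-abParts. Other bins in the text were chosen after their values were seen. The members and lists were chosen with earlier results of these data known. In all 25 other settings varied limits, bins, model and libraries, beside 16 with a library left out. Positions that are not CpGs of the reference (43070 to 59226 per library) were left out. Second LTR copies were searched within 12 kb with blastn 2.17.0 at 85% identity over 80% of the length. Python 3.11.15, NumPy 2.4.6, SciPy 1.17.1, Numba 0.67.0, pandas 2.3.3 and Matplotlib 3.10.9 were used.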

Additional observations from a re-analysis of the deposited data

Results flagged for a closer look

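Among 54 groups of libraries in the named bins, 2 had a library far from the others of its cell type, where chance alone gives about 1 in 20. In the bin 3500 to 4000 bp before IAP-Hspa4, the B cell male oxBS library 3 was at 63.2% (57 calls), and the other 7 B cell libraries lay between 35.1 and 46.8%. In the 500 bp after IAP-abParts, the T cell female BS library 15 was at 90.5% (63 calls), and the other 7 T cell libraries lay between 95.6 and 98.3%. In none of the named bins did the sexes or the assays show opposite differences with B and T cell libraries that did not overlap. Opposite signs with overlapping libraries are given with the other settings.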

How the results depend on the processing

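No paired analysis was possible because the labels number the libraries from 1 to 16 with no number shared between groups. The 11 called bins at invariable IAPs and the 3 at k-mer IAPs were all kept with a dispersion of at least 1, no covariates, all libraries in the fit, adjustment over flank bins alone and the two-sided exact permutation test. The counts that follow are not shares, since the number of bins tested can change with the setting. At invariable IAPs the count called was 7 with 40 calls per library, where fewer bins were kept (numbers below), and 6 with bins of 1000 bp. It was 17 (9.34%) with no limit on the difference, beside 7.26% of all tiles. It was 7 with BS libraries alone, 7 with male and 5 with female libraries alone, and 10 to 12 with a library left out. With the bins of IAP-Ano6 left out (chosen after seeing the data) it was 5 (3.05%). At k-mer IAPs the count was 1 with 40 calls, where again fewer bins were kept, 10 with a limit of 10 points and 1 with 30 points. It was 10 (7.09%) with no limit, 1 with male libraries alone, and 3 to 5 with a library left out, the 5 without T cell female oxBS library 14. Each assay or sex alone leaves 4 libraries a cell type by construction, and the calls at IAP-Scgb2b27, IAP-Srpk2 and 4000 to 4500 bp after IAP-Ano6 were lost in every such subset, those at 500 to 1000 bp before (BS, female), 3500 to 4000 bp after (both sexes) and 4500 to 5000 bp after IAP-Ano6 (female), at IAP-Creb3l2 (BS, both sexes) and at 3500 to 4000 bp after IAP-Gpsm1 (BS, male) in some.

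Bins at 80% or more at invariable IAPs numbered 58 of 79 with 40 calls (73.4%) and 92 of 117 with 5 CpGs per bin (78.6%), where fewer bins were kept, 95 of 182 with a class limit of 90%, and 135 to 141 with a library left out. At k-mer IAPs they numbered 55 of 59 with 40 calls (93.2%), 78 of 88 with outward bins and the 11 bins of the solitary LTR IAP-Hspa4 (88.6%), and 117 to 132 with a library left out. Over the other settings the median difference was 0.0452 to 1.302 points at k-mer IAPs, the highest with oxBS libraries alone, and 0.112 to 1.17 points at invariable IAPs. With a library left out it was 0.191 to 0.675 points at k-mer and 0.275 to 0.668 points at invariable IAPs.

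The sign turned only in bins without a call. With BS libraries alone the difference was -0.0180 and -4.28 at 4000 and 4500 bp before IAP-1700049G17Rik, 4.68 at IAP-Ddx18, 0.692 at IAP-Glycam1, -1.29 at IAP-Gm4262 and 0.555 after IAP-abParts. With oxBS libraries alone it was -0.812 and -0.0144 in the first and second bin before IAP-abParts. With male libraries alone it was -2.15 at 4500 bp before IAP-1700049G17Rik, 1.49 at IAP-Ddx18, 0.368 before IAP-Gm1335 and -0.192 in the first bin before IAP-abParts. With female libraries alone it was 0.937 at IAP-Glycam1, 0.462 at IAP-Mrgprb5, 0.4998 after and -0.759 in the second bin before IAP-abParts. Pooled calls gave -0.214 in the first bin before IAP-abParts, and CpGs with 3 calls or more -0.138 at 4500 bp before IAP-1700049G17Rik. With a library left out the ranges were -0.0696 to 0.203 and -1.19 to 1.29 at 4000 and 4500 bp before IAP-1700049G17Rik, -3.83 to 2.04 at IAP-Ddx18, -4.12 to 3.39 at IAP-Glycam1, -1.57 to 0.222 before IAP-Gm1335, and -0.520 to 1.42 and -0.112 to 1.14 before IAP-abParts. The cause was not tested. Depth and the spread between libraries limit the bins. The median kept bin had 40 calls per library, and the median 95% interval of a difference was 10.7 points wide at invariable and 8.58 points at k-mer IAPs. The smallest detectable difference was not measured.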
